A study of Mus musculus with 6 samples.

Results

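Malat1, Neat1, Gm42418 and Gas5 are the abundant genes annotated as long noncoding in this series. They are described here as 4 of the 41388 genes with a row in the deposited counts and 4 of the 12192 genes that passed the filter on low values. They were chosen from their measured values: they hold more counts than any other long noncoding gene, and Malat1 was already known to differ between the groups. Their values in the contrast, including whether the fit over all genes called them, are therefore a description from which nothing is concluded. The data came from 6 libraries of cells sorted from mammary tumors of 12-week-old female FVB/N-TgN(MMTVPyVT)634Mul/J mice (MMTV-PyMT), in which the mouse mammary tumor virus promoter, active mainly in mammary epithelium, drives the polyoma middle T antigen. Tumor-initiating cells (TICs; CD24+CD90+CD45-) and non-CD24+CD90+ tumor cells, which lacked either or both markers and CD45 as well, had 3 libraries each. The series text describes the comparison group as CD24-CD90-, whereas the study's methods include cells with 1 of the markers, and the methods' name is used here. Every library was a pool of 4 cell sorts, the replicates were numbered here in the order of their sample records, and the labels give no batch. The study describes each replicate as pooled tumors of 4 mice, and its supplement gives 12 mice in total. Pools of the 2 groups may therefore share mice. Which pools would do so is not given in the labels, and the tests treated the libraries as independent. p-values measure the spread between pools.

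Malat1 is a nuclear RNA that concentrates in nuclear speckles, the bodies that store splicing factors. RNase P cuts its primary transcript, which releases a small tRNA-like RNA (mascRNA), and the new 3′ end is protected by a triple helix of an A-rich tract and U-rich runs instead of a poly(A) tail. Neat1, its neighbour on the same chromosome, is the scaffold of paraspeckles, and its long isoform ends by the same kind of cut. Gas5 hosts small nucleolar RNAs (snoRNAs) in its introns. Its spliced RNA begins with a pyrimidine tract that ties its translation to growth conditions, is degraded by nonsense-mediated decay, and can act as a decoy for the glucocorticoid receptor. Gm42418 is an annotated gene model that overlaps a copy of the 18S ribosomal RNA, and its counts are commonly read as ribosomal RNA left in a library.

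On the GRCm38 build with GENCODE M21, Malat1 (ENSMUSG00000092341) is a single-exon lincRNA of 6983 bases at chr19:5795690-5802672 on the minus strand. Neat1 (ENSMUSG00000092274) is a lincRNA of 20771 bases at chr19:5824708-5845478 on the same strand, 22.0 kb away. The 3′ ends are shown because they set Malat1 and the long Neat1 isoform apart from polyadenylated RNAs. The last 110 bases of the long Neat1 transcript and the 110 bases of Malat1 that end at the same A-rich run were aligned at that run, and capitals mark the T-rich and A-rich runs found in both. Some bases beside the capitals are also shared and stay in lower case. The Neat1 stretch is chr19:5824708-5824817 and the Malat1 stretch is chr19:5795982-5796091, both minus strand.
Neat1 3′ end: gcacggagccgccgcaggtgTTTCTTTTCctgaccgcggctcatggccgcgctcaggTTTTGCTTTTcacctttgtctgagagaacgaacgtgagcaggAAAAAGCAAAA
Malat1 3′ region: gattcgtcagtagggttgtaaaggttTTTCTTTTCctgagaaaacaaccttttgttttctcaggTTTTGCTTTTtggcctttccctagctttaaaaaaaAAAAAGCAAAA
The closing A-rich run of 11 bases occurs 1 time in each transcript, and the 2 shared T-rich runs before it are 9 and 10 bases long. In GENCODE the Neat1 model stops at this run, whereas the Malat1 model goes on for 292 bases. The next sequences are the small RNA Gm27702, at chr19:5824652-5824707 directly after Neat1, and the 70 bases of Malat1 at chr19:5795912-5795981 that follow its A-rich run and hold the tRNA-like part. No letter is capitalised in this pair.
Gm27702: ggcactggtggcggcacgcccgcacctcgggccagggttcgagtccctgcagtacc
Malat1 after the A-rich run: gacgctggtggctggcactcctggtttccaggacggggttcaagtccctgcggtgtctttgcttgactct
In a global alignment of Gm27702 with the first 58 of these bases of Malat1, 40 positions were identical.

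Gm42418 (ENSMUSG00000098178) is a single-exon lincRNA of 1831 bases at chr17:39846958-39848788 on the plus strand. RefSeq lists Gm42418 as a synonym of Rn18s-rs5, an 18S ribosomal RNA copy at chr17:39846354-39848202, and 1245 bases of Gm42418 (68%) lie inside it. The first 100 bases, chr17:39846958-39847057, are all inside the copy and are capitalised. The second stretch, chr17:39848143-39848262, crosses the end of the copy, with the part inside it in capitals and the part after it in lower case.
Gm42418 start: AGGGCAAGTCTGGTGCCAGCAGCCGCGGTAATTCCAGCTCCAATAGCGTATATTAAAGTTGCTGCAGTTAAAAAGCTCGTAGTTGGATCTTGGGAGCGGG
Gm42418 boundary: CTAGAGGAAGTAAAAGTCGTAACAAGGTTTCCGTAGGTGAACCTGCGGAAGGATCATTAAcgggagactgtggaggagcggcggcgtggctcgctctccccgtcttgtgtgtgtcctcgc
Gas5 (ENSMUSG00000053332) is annotated as a processed transcript at chr1:161034422-161038539 on the plus strand, with 3760 exonic bases. The RefSeq promoter table (GRCm38.p6) holds 2 start sites for Gas5, and the region of the second, chr1:161035116-161035215, is printed with its pyrimidine run in capitals.
Gas5 start: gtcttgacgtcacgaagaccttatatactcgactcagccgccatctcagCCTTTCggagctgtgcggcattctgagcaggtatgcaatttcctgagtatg
The run was searched as at least 6 consecutive C or T, read on the strand of the gene, within 10 bases of the start. It was found at 1 of the 2 Gas5 starts and at 30% of the 32851 RefSeq promoters in the table.

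Total counts were 6781239 to 8450038 in non-CD24+CD90+ cells and 8114933 to 9100552 in TICs. 3 counts in a library corresponded to 0.33 to 0.442 CPM (counts scaled to the library total), far under the level of the 4 RNAs. TIC replicate 3 stood apart: its mean Pearson r of log2 CPM with the other 5 libraries was 0.701, against 0.732 to 0.774 for the others. It lacked any count for 90 of 7168 genes that had at least 100 counts in both other TIC libraries, and the other libraries lacked 1 to 26 such genes. The values that lean on it most are given without it as well. The 4 RNAs took 5.87%, 3.39% and 3.58% of all counts in non-CD24+CD90+ cells, replicates 1 to 3, and 6.43%, 6.57% and 8.39% in TICs. They made up 79.1% to 91.1% of the counts of all 5311 long noncoding genes. The remaining 5307 long noncoding genes took 0.704% to 0.895% of counts in every library, with overlapping groups.

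**Figure D1:**
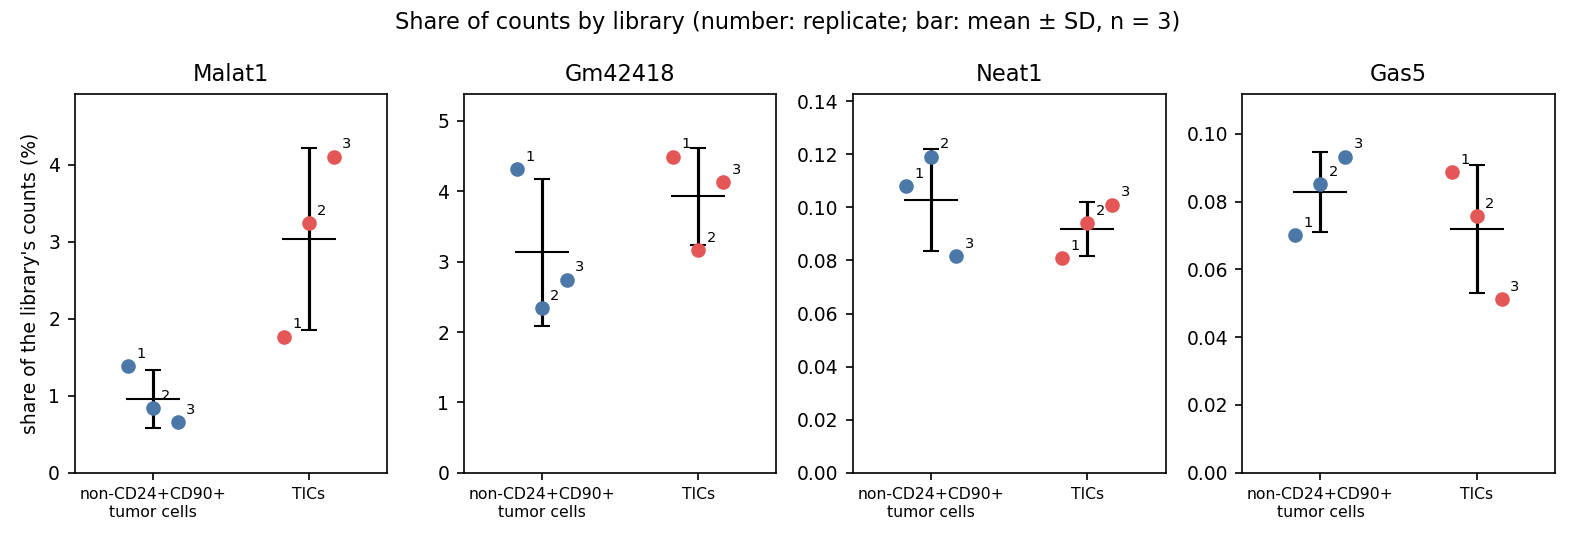
Share of each library's counts (%) taken by Malat1, Gm42418, Neat1 and Gas5, with 1 point for each library, the replicate number beside it, and a bar for the mean ± SD (n = 3). Every axis starts at 0 and has its own scale. For Malat1 the TIC points, 1.77% to 4.10%, lie above the others, 0.658% to 1.38%, and for the other RNAs the groups overlap.

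Malat1 was the RNA of this group that separated the cell populations. It took 1.38%, 0.84% and 0.658% of the counts in non-CD24+CD90+ cells (96649, 70981 and 44594 counts) and 1.77%, 3.24% and 4.10% in TICs (160743, 279816 and 332932 counts). The groups did not overlap, but the nearest libraries, TIC replicate 1 and non-CD24+CD90+ replicate 1, were only 1.25-fold apart in CPM normalized by trimmed mean of M values (TMM), and the farthest were 6.89-fold apart. Within a group the spread was also wide, 2.21-fold between the lowest and the highest non-CD24+CD90+ library and 2.49-fold among TICs. The mean share was 0.96% ± 0.377 in non-CD24+CD90+ cells and 3.04% ± 1.18 in TICs (SD, n = 3). In TIC replicate 2 Malat1 had more counts than any other gene, and in the other libraries it ranked 3 or 4. Counting error was negligible beside this spread: the largest half-width of a Wilson 95% interval for any share of the 4 RNAs was 0.0151 percentage points, which covers counting error only.

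The fit over all genes gave Malat1 a log2 fold change of TICs over non-CD24+CD90+ cells of 1.72 (SE 0.377, 95% interval 0.984 to 2.46), a 3.30-fold higher level. Malat1 was 1 of the 4 RNAs called by edgeR's exactTest at an adjusted p-value under 0.1. Over all genes 1.55% were called, 1.36% as higher in TICs and 0.189% as lower, and 7.69% had every TIC library above every other library. Nothing is read from the count of 1, since Malat1 was chosen with this contrast known. Without TIC replicate 3 the log2 fold change was 1.43, and without TIC replicate 1 it was 2.03. Without non-CD24+CD90+ replicate 3 it was 1.51 and Malat1 was not called. Of the 189 called genes Malat1 was the most abundant, with a mean of 20460 CPM. Next came Col1a1 (3170 CPM) and Mgp (2708 CPM), a fibrillar collagen and a matrix protein. Of the 94 genes at 1000 CPM or more, 8 were called higher in TICs and 0 lower, and their median log2 fold change was -0.13. In bulk libraries fewer or more cells of a type and less or more RNA per cell cannot be told apart.

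Marker genes of stromal cells and the mitochondrial share were also higher in TICs. Within non-CD24+CD90+ cells Malat1 was highest in replicate 1, where all 3 stromal lists were lowest. Within TICs the pericyte and endothelial sums rose from replicate 1 to replicate 3, as Malat1 did, and the fibroblast sum was highest in replicate 2. The summed level of 9 fibroblast markers was 1376 to 1732 CPM in non-CD24+CD90+ cells and 2394 to 4388 CPM in TICs. Of the 9, exactTest called 5 higher in TICs, DESeq2 called 5 and the quasi-likelihood test called 2. For 11 pericyte and smooth muscle markers the sums were 600.2 to 786 and 1052 to 1694 CPM. By exactTest 1 was called, Rgs5, a pericyte regulator of G-protein signaling, and DESeq2 and the quasi-likelihood test each called 1. Rgs5 alone was at 243 ± 0.34 and 665 ± 136 CPM (SD, n = 3), a large part of these sums. Of the 11 genes 10 had a positive log2 fold change, but Acta2 (-0.01) and Myh11 (0.07) were near 0 and their groups overlapped. For 11 endothelial markers the sums were 201 to 238 and 252 to 964 CPM, with 0 called by exactTest, the quasi-likelihood test or DESeq2. Of these 11, 6 (54.55%) were at an unadjusted p under 0.05, against 7.85% of all genes tested. Without TIC replicate 3 the endothelial sums in TICs were 252 to 427 CPM, and 0 of the 11 had such a p. The sums thus did not overlap for any of the 3 stromal lists, and every one of the 11 endothelial markers had a positive log2 fold change, or 10 of them without TIC replicate 3. Among 5 adipocyte markers only Fabp4, a fatty acid carrier that capillaries also make, was tested, and it was called higher in TICs (log2 fold change 2.75, or 1.88 without TIC replicate 3), while Adipoq, Plin1 and Lep were at 0 counts. Leukocyte markers summed to 71.2 to 118 and 222 to 298 CPM. Of the 11, 5 were tested and exactTest called 2 higher in TICs, Lyz2 and Cd74. DESeq2 called 2 and the quasi-likelihood test called 0. Laptm5 had a log2 fold change of 1.90, Cd68 one of -0.31 and Csf1r one of -1.69, while Cd3e and Adgre1 were at 0 and Ptprc, which encodes the CD45 used for depletion, had 33 counts in 1 non-CD24+CD90+ library and 0 in the others. Luminal epithelial markers went the other way, 6735 to 7112 against 4810 to 5050 CPM, with 0 of 8 tested genes called by exactTest, 2 at an unadjusted p under 0.05, 0 by the quasi-likelihood test and 2 by DESeq2. Basal markers overlapped between the groups (450 to 1001 and 366 to 593 CPM), as did those of erythroid cells (26.7 to 100.2 and 15.4 to 166 CPM). Of the genes behind the sort, Cd24a had a log2 fold change of -0.34 and Thy1, which encodes CD90, one of 1.25, and neither was called.

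**Figure D2:**
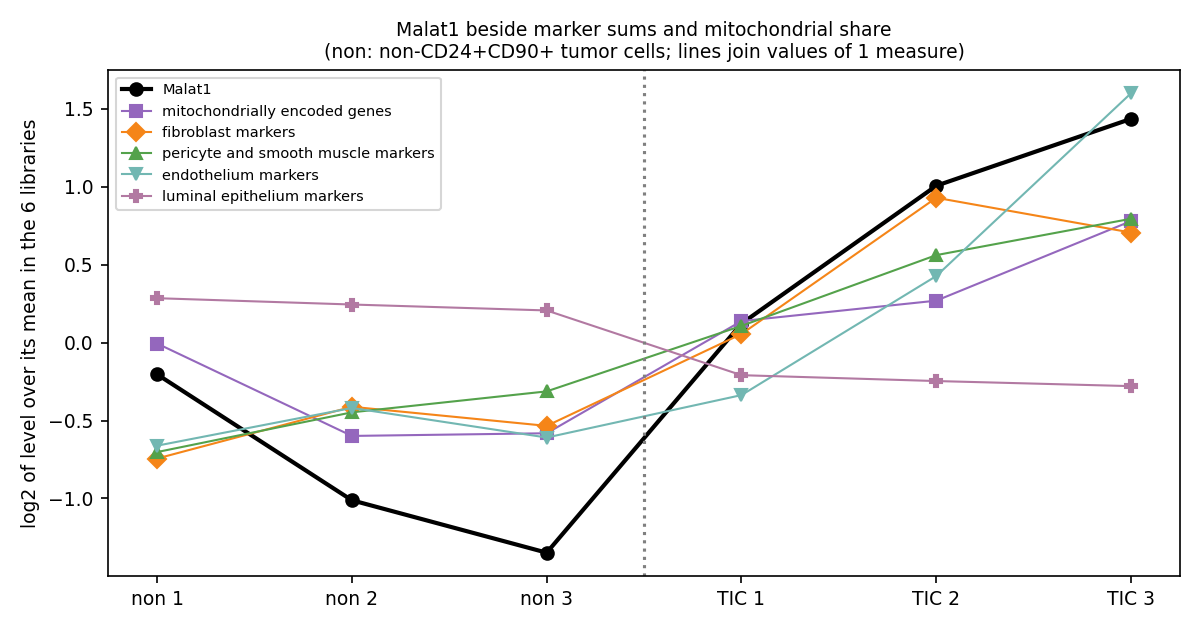
Malat1 (TMM CPM) beside the summed TMM CPM of marker lists and the share of counts from mitochondrially encoded genes, each as log2 of its level over its mean in the 6 libraries. Lines join the values of 1 measure, libraries of non-CD24+CD90+ cells ("non") are left of the dotted line and TICs right of it. Malat1 and the stromal lists lie higher in the TIC libraries, the luminal markers lower, and the endothelial markers are highest in TIC replicate 3.

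Mitochondrially encoded genes took 2.91%, 1.93% and 1.95% of counts in non-CD24+CD90+ cells and 3.21%, 3.52% and 5.01% in TICs. Most of it was ribosomal: the mitochondrial ribosomal RNAs took 1.33% to 2.24% and 2.34% to 4.59%, while the 13 mitochondrial protein coding genes took 0.585% to 0.666% and 0.416% to 0.868%, with overlapping groups. mt-Rnr2, the large mitochondrial ribosomal RNA, had a log2 fold change of 1.07 (SE 0.354, exactTest adjusted p = 0.149), or 0.67 without TIC replicate 3, and mt-Rnr1, the small one, of 0.86 (SE 0.336, adjusted p = 0.322). Malat1 therefore shared its order of groups with mt-Rnr2, whose TIC libraries also lay above the others, and TIC replicate 3 was highest for both. With mitochondrial genes taken out of the total, the mean share of Malat1 was 3.22-fold higher in TICs, and with protein coding genes as the total it was 3.31-fold higher, against 3.16-fold for all counts. The part of these cell type markers and of the mitochondrial RNAs in the Malat1 difference was not tested.

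The genes whose log2 CPM followed that of Malat1 most closely over the 6 libraries, among 3796 genes with a mean of at least 50 CPM, were Map1b (Pearson r = 0.997), Bicc1 (0.991) and Yipf4 (0.982). Map1b, a microtubule-associated protein best known from neurons, was at 185, 108 and 91.8 CPM in non-CD24+CD90+ cells and at 272, 471 and 636 CPM in TICs. Bicc1, an RNA-binding protein, was at 111, 78.2 and 51.2 CPM and at 145, 238 and 275 CPM. Both have the library order of Malat1 within each group. Yipf4, at 84.5, 66.3 and 57.9 CPM and at 93.9, 118 and 116 CPM, has TIC replicate 2 above replicate 3. With 6 points that share depth and group these values, and the like values given below for the other RNAs, are a description.

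Genes for proteins of nuclear speckles gave no calls. Of 25 listed genes for speckle and SR splicing proteins 22 were tested, and 0 were called by exactTest, the quasi-likelihood test or DESeq2, with 1 at an unadjusted p under 0.05. Their median log2 fold change was 0.05, beside -0.01 for all genes tested, and 12 were positive. The most abundant were Son, a large protein that organises the speckle, at 1046 ± 178 CPM in non-CD24+CD90+ cells and 1378 ± 225 in TICs (SD, n = 3), Luc7l3 at 951 ± 132 and 1358 ± 445, and Srsf11 at 675 ± 126 and 964 ± 338. Their log2 fold changes were 0.40, 0.51 and 0.52, and their groups overlapped. For the proteins that cut, trim or bind the Malat1 3′ end, subunits of RNase P, the tRNA 3′ endonuclease Elac2 and the triple-helix binding Mettl16 among them, 11 of 13 were tested. Of these 0 were called by any of the 3 tools and 0 had an unadjusted p under 0.05, with a median log2 fold change of -0.26. Elac2 was at 50.9, 72.5 and 54.2 CPM in non-CD24+CD90+ cells and at 37.8, 49.7 and 14.3 CPM in TICs, a log2 fold change of -0.80 (SE 0.522), or -0.42 without TIC replicate 3. Every TIC library was lower than every other library for Elac2, as for 7.55% of all genes tested. Pop5, a shared subunit of RNase P and RNase MRP, was at 86.5 ± 10.1 and 72.3 ± 29.9 CPM, and Mettl16 at 61.6 ± 13.0 and 73.3 ± 37.5 CPM.

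Neat1 took 0.108%, 0.119% and 0.0817% of counts in non-CD24+CD90+ cells (7545, 10065 and 5542 counts) and 0.0808%, 0.0940% and 0.101% in TICs (7351, 8120 and 8197 counts). The groups overlapped. Its log2 fold change was -0.10 (SE 0.283, 95% interval -0.65 to 0.46), which holds values of either sign and lies below the interval of Malat1. Over all 6 libraries its CPM varied by 1.44-fold, less than that of Malat1 within either group. Per kilobase of exon Neat1 was at 48.7 CPM in non-CD24+CD90+ cells and 45.5 CPM in TICs, and Malat1 at 1362 and 4497 CPM. The count per gene does not separate the short from the long Neat1 isoform, since the short one lies within the long one. The value per kilobase divides by all 20771 bases, so it would understate a level carried mainly by the short isoform.

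The ratio of Malat1 to Neat1 counts, which does not depend on how libraries are scaled, was 12.8, 7.05 and 8.05 in non-CD24+CD90+ cells and 21.9, 34.5 and 40.6 in TICs. Its lowest TIC value lay above its highest other value. The ratio of Malat1 to Gm42418 was 0.321, 0.359 and 0.240 in the first group and 0.393, 1.02 and 0.993 in TICs. It separated the groups by less at its nearest libraries, and in TIC replicates 2 and 3 Malat1 was about as abundant in counts as the ribosomal locus.

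**Figure D3:**
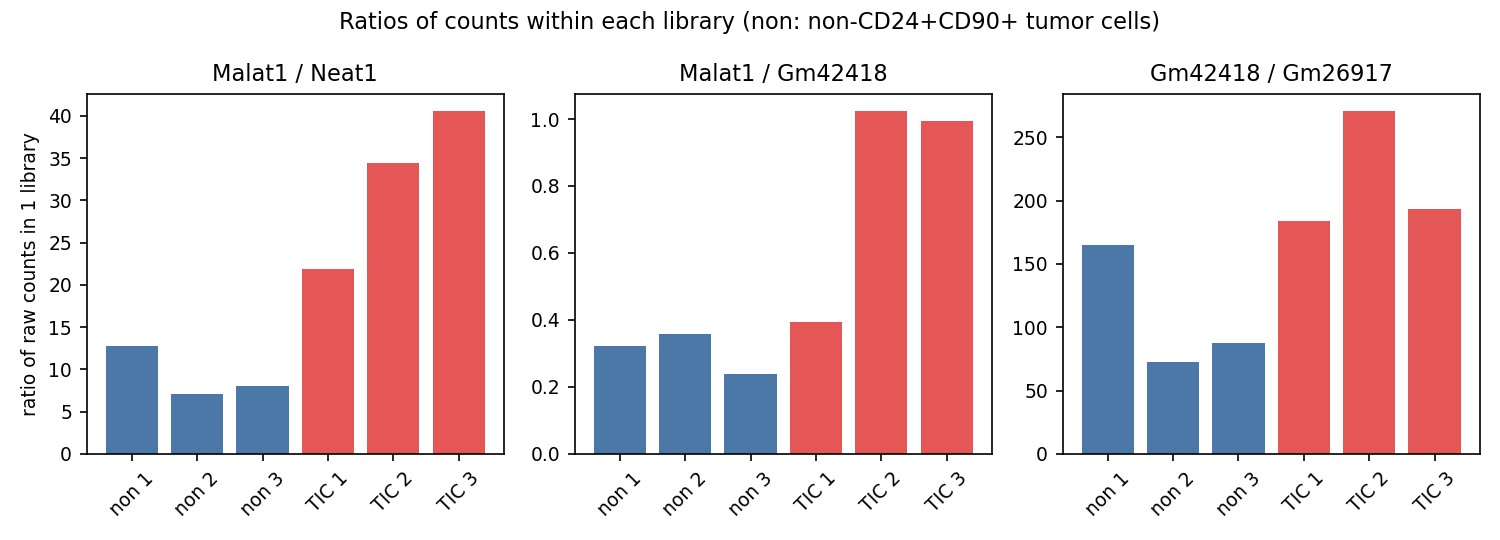
Ratios of raw counts within each library, as bars from 0, for Malat1 over Neat1, Malat1 over Gm42418 and Gm42418 over Gm26917, with non-CD24+CD90+ cells ("non") in blue and TICs in red. Malat1 over Neat1 runs from 7.05 to 12.8 in blue and from 21.9 to 40.6 in red, and the other ratios leave a smaller gap between the groups.

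Paraspeckle proteins are the partners of Neat1. All 19 listed genes were tested, and 0 were called by exactTest, the quasi-likelihood test or DESeq2, with 2 at an unadjusted p under 0.05. Those 2 went opposite ways: Pspc1 had a log2 fold change of 1.01 with every TIC library above the others, and Rbm14 one of -1.32 with every TIC library below. Such orders were seen for 7.69% and 7.55% of all genes tested. The median log2 fold change of the list was -0.12, with 6 positive. Summed over the list the 19 genes were at 3453 to 3645 CPM in non-CD24+CD90+ cells and 3097 to 3352 CPM in TICs. The sums did not overlap although no gene was called. Among the most abundant were Hnrnpk (log2 fold change -0.12) and the chromatin remodeler Smarca4 (-0.39). Sfpq, which with Nono forms the core of the paraspeckle, was at 329, 311 and 287 CPM in non-CD24+CD90+ cells and 267, 272 and 218 CPM in TICs, and Nono was at 150.4 ± 13.5 and 147 ± 34.7 CPM. Hnrnpm, another paraspeckle protein, had the pattern nearest to that of Neat1 among the 3796 genes compared (r = 0.986 over the 6 libraries). It was at 115, 115 and 74.7 CPM in non-CD24+CD90+ cells and at 78.6, 99.4 and 108 CPM in TICs. Brwd1 (0.981) and Kin (0.970), which are not on the list, came next. These correlations are a description.

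Within 250 kb of Malat1 or Neat1, 43 other genes had a row and 23 were tested. Of these 0 were called by exactTest, the quasi-likelihood test or DESeq2, with 1 at an unadjusted p under 0.05, and their median log2 fold change was -0.30, with 11 positive. The values ran from -1.02 for Tm7sf2, a sterol reductase, to 2.36 for Frmd8 (SE 1.16, exactTest adjusted p = 0.69), which encodes a FERM domain protein and had 5, 36 and 37 counts in non-CD24+CD90+ cells and 259, 68 and 118 in TICs. Ehbp1l1, at 0.95 (SE 0.470, adjusted p = 0.611), and Rela, a subunit of NF-kB, at 0.30 (SE 0.319), also had every TIC library above the others. This order was seen for 7.69% of all genes tested. Other neighbours with over 40 CPM in either group were Ltbp3 (log2 fold change -0.32), Capn1 (-0.44) and Pcnx3 (0.47). Below 0 were also Map3k11, Mrpl49, Cdca5, Vps51, Dpf2, Cdc42ep2, Sipa1 and Znhit2, and above 0 Zfpl1, Syvn1, Slc25a45, Pola2, Ovol1, Rnaseh2c and Sssca1. The miscellaneous RNA model Gm27694 inside Malat1, the 3 such models inside Neat1 and Gm27702 beside it had 0 counts in all libraries. The models inside Malat1 and Neat1 lie within their exons on the same strand, where a counter can drop reads as ambiguous. Their 0 counts therefore do not show whether such small RNAs were present.

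Gm42418 had the most counts of the 4 RNAs and of all genes in 4 libraries. It took 4.31%, 2.34% and 2.75% of counts in non-CD24+CD90+ cells (301297, 197842 and 186149 counts) and 4.49%, 3.16% and 4.13% in TICs (408668, 272979 and 335329 counts). Replicate 1 was the highest of each group and the groups overlapped. The log2 fold change was 0.38 (SE 0.317, 95% interval -0.24 to 1.001). Per kilobase the level was 16940 CPM in non-CD24+CD90+ cells and 22030 CPM in TICs, the highest of the 4 RNAs. Reads that map to more than 1 place had been removed before counting, so that reads shared with other ribosomal copies are missing, and the counts do not say which part of the model they came from. The antisense models there, AY036118 and CT010467.1, were not analysed here.

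The model just upstream of the 18S copy had its lower values in TICs. Gm26917 is a lincRNA model on the same strand at chr17:39843013-39846341, which ends 12 bases before the 18S copy begins. It was at 266, 309 and 303 CPM in non-CD24+CD90+ cells and at 244, 117 and 229 CPM in TICs, a log2 fold change of -0.57 (SE 0.330, exactTest adjusted p = 0.786). Its TIC libraries were all lower, an order seen for 7.55% of all genes tested. The ratio of Gm42418 to Gm26917 was 165, 72.7 and 87.9 in the first group and 184, 271 and 193 in TICs. Non-CD24+CD90+ replicate 1 was near the TIC values. Of 16 genes on the list of ribosomal and structural RNAs 13 had a row and 5 were tested, with 0 called by exactTest or the quasi-likelihood test, 1 by DESeq2 and 3 at an unadjusted p under 0.05. Besides the mitochondrial pair, Gm15564 had a log2 fold change of -0.85 (SE 0.353, adjusted p = 0.399) and Lars2, the 1 protein coding gene of the list, which encodes the mitochondrial leucyl-tRNA synthetase, one of -0.14. The patterns nearest to Gm42418 were those of Ccn1, a matrix-associated signaling protein (r = 0.982), Rps25 (0.969) and the ribosomal pseudogene Rpl23a-ps3 (0.959).

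Gas5 took 0.0700%, 0.0852% and 0.0932% of counts in non-CD24+CD90+ cells (4893, 7199 and 6322 counts) and 0.0887%, 0.0757% and 0.0513% in TICs (8073, 6541 and 4161 counts). The groups overlapped, and TIC replicate 3 was the lowest library. The log2 fold change was -0.15 (SE 0.289, 95% interval -0.71 to 0.42), and without TIC replicate 3 it was 0.04. Per kilobase of its 3760 annotated exonic bases Gas5 was at 216 CPM in non-CD24+CD90+ cells and 195 CPM in TICs. A shorter spliced form would have a higher value. The 9 snoRNA genes analysed within Gas5 had 0 counts in every library. Reads that fall on both a snoRNA and a Gas5 exon can be dropped by a counter as ambiguous, and where in Gas5 the reads lie was not tested. Zbtb37, which overlaps the start of Gas5 on the other strand, had 139 counts in all 6 libraries together. Whether counting used strand is not given in the sources used here.

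Other snoRNA hosts gave no calls. Of 20 listed genes 13 had a row and 10 were tested, with 0 called by exactTest, the quasi-likelihood test or DESeq2 and 1 at an unadjusted p under 0.05. Their median log2 fold change was 0.21, and 7 were positive. Zfas1, the most abundant, was at 126, 172 and 142 CPM in non-CD24+CD90+ cells and at 180, 169 and 175 CPM in TICs. Snhg18 (log2 fold change 0.73) and Snhg5 (-0.32) followed. Snhg20 was at 54.4, 40.6 and 34.6 CPM and at 16.4, 18.6 and 12.9 CPM, with every TIC library lower. Its log2 fold change was -1.43 (SE 0.581, exactTest adjusted p = 0.376). Snhg6 went the other way, with 17, 38 and 98 counts in non-CD24+CD90+ cells and 202, 182 and 138 in TICs. Its log2 fold change was 1.565 (SE 0.981, exactTest adjusted p = 0.884), with every TIC library above the others in CPM. These orders were seen for 7.55% (TICs lower) and 7.69% (TICs higher) of all genes tested. The 10 nonsense-mediated decay factors, all tested, had a median of 0.23, with 0 called by any of the 3 tools and 0 at an unadjusted p under 0.05. Their most abundant members were Upf2 (0.20), Upf3b (0.28) and Smg6 (0.42), where Upf2 and Upf3b belong to the surveillance complex and Smg6 is its endonuclease.

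Among transcripts with a 5′ pyrimidine tract like that of Gas5, other than ribosomal protein genes, 13 of 15 were tested. Eef1d, the delta subunit of the elongation factor that reloads eEF1A, fell in TICs. It was at 804, 880 and 872 CPM in non-CD24+CD90+ cells and at 501, 428 and 446 CPM in TICs, with no overlap. Its log2 fold change was -0.89 (SE 0.266, exactTest adjusted p = 0.0765). DESeq2 called it (adjusted p = 2.88e-04) and the quasi-likelihood test did not (adjusted p = 0.138), and exactTest kept the call in 1 of 6 fits with a library left out. The other 12 were not called and the list's median was -0.16, with Eef2 at -0.19, Rack1 at 0.05 and Eef1b2 at -0.45. The glucocorticoid receptor and its targets had 9 of 9 genes tested, 0 called by any of the 3 tools, 0 at an unadjusted p under 0.05 and a median of 0.00. Nr3c1, the receptor that Gas5 can bind, had a log2 fold change of -0.07, and its target Klf9 one of 0.59. The genes nearest to Gas5 in pattern were Pes1, needed for ribosome assembly (r = 0.995), Rpl22l1, a paralog of a ribosomal protein (0.990), and Alg5, of protein glycosylation (0.985). Pes1 was at 97.6, 125 and 155 CPM in non-CD24+CD90+ cells and at 137, 107 and 62.9 CPM in TICs, the order that Gas5 has within each group.

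**Figure D4:**
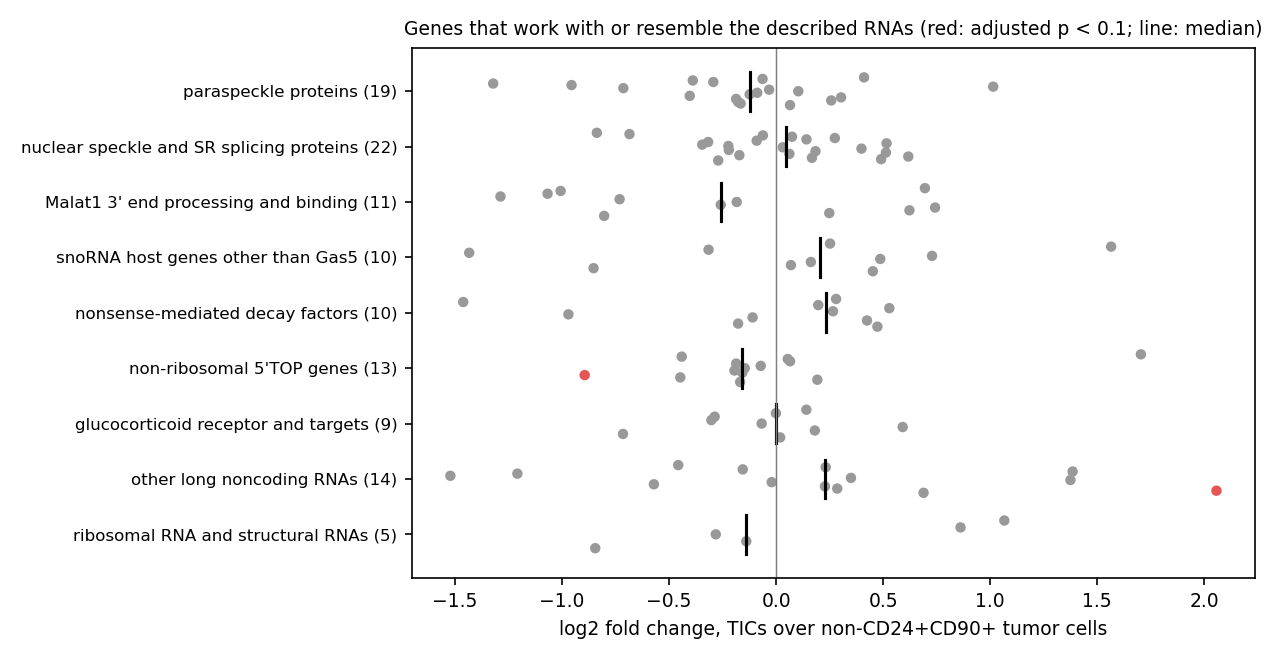
log2 fold change of TICs over non-CD24+CD90+ cells for the tested genes of 9 lists, with 1 point for each gene, red where exactTest called it, a line at the median and the number of tested genes in parentheses. The medians lie between -0.26 and 0.23, and the red points are Eef1d at -0.89 and Dnm3os at 2.06.

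Over all 9 lists 2 of 113 tested genes (1.77%) were called, against 1.55% of all genes, and 9 (7.96%) had an unadjusted p under 0.05, against 7.85% of all genes. Dnm3os, an antisense RNA in the Dnm3 gene that hosts microRNAs, was the one among 14 tested long noncoding RNAs of the list. It had 154, 78 and 76 counts in non-CD24+CD90+ cells and 474, 637 and 372 counts in TICs, and rose by a log2 fold change of 2.06 (SE 0.561, exactTest adjusted p = 0.0493). DESeq2 called it too (adjusted p = 0.0211), the quasi-likelihood test did not (adjusted p = 0.205), and 3 of 6 fits with a library left out kept the call. Xist (-0.46) and Kcnq1ot1 (0.35) were not called. Meg3, Rian, Miat, Lncpint and Hotair had 0 counts in all libraries.

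Among the noncoding genes with most counts Malat1 stood at the upper end of the fold changes. The 10 most counted were Gm42418, mt-Rnr2, Malat1, mt-Rnr1, Neat1, Gas5, BC006965, Xist, Kcnq1ot1 and 4632427E13Rik, and exactTest called 1 of them, Malat1. Of all 365 long noncoding genes tested, 3 were called higher in TICs and 1 lower (1.096%), and without the 4 RNAs it was 2 and 1 of 361 (0.831%). The other calls were Dnm3os and a pair of low transcripts that were chosen after their values were seen. 9130017K11Rik had 0 counts in non-CD24+CD90+ cells and 36, 75 and 133 in TICs, at least 25.1-fold higher against a floor of 3 counts per library (exactTest adjusted p = 0.058). 9430002A10Rik had 28, 131 and 43 counts and 0 in TICs, at least 23.3-fold lower (exactTest adjusted p = 0.0834). Both kept their call in 0 of 6 fits with a library left out.

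**Figure D5:**
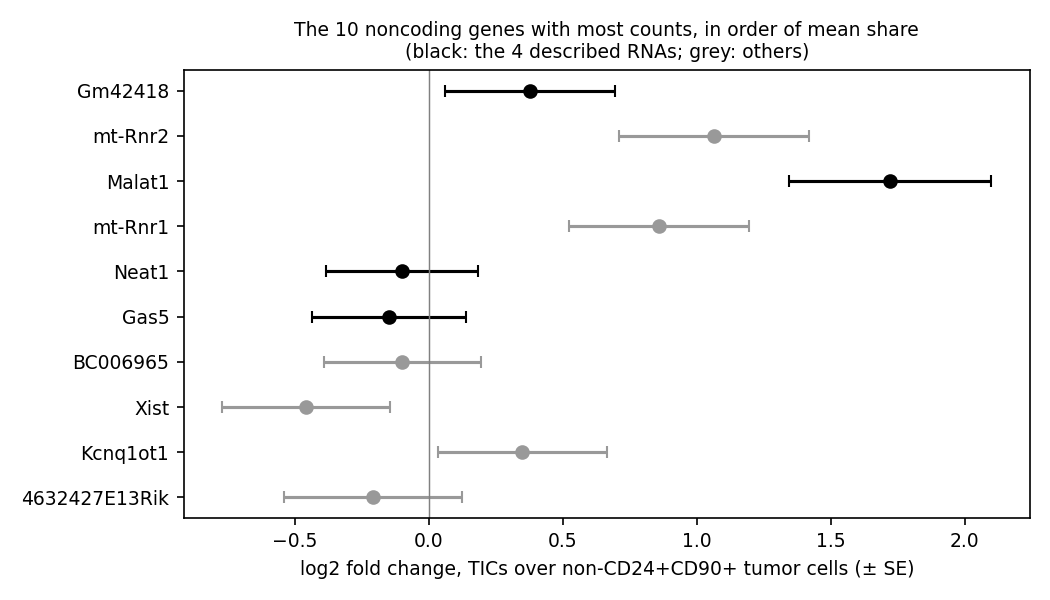
log2 fold change of TICs over non-CD24+CD90+ cells (± SE of the fit, n = 3 libraries per group) for the 10 noncoding genes with most counts, in order of mean share, with the 4 described RNAs in black. Malat1 lies at 1.72, mt-Rnr2 at 1.07 and mt-Rnr1 at 0.86, and Neat1 and Gas5 within 1 SE of 0.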

How the data were processed

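RNA-seq counts of 6 libraries, 3 per group, were analysed. The authors used Trimmomatic 0.32 for trimming, STAR 2.4.0 for alignment to GRCm38, SAMtools 1.1 to drop reads without a unique position and HTSeq for counting, and deposited raw counts per Ensembl gene. Annotation release, strand setting and poly(A) selection are not given in the sources used here. Symbols came from GENCODE M21 and matched 40254 of 41388 genes. Genes without a symbol held 0.171% of counts.

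From the counts, shares of the library total were computed with Wilson 95% intervals. Genes with over 1 CPM in at least 3 libraries (12192) were tested with exactTest of edgeR 4.0.16 (R 4.3.3) after TMM, in the design of the study, with Benjamini-Hochberg adjustment over all of them and a threshold of 0.1. CPM are TMM-normalized unless called shares. Standard errors come from the negative binomial fit. Scripts were tested on simulated counts.

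The 4 RNAs, the lists and the tests were chosen with earlier results of these data known. Named are the 4 RNAs, the 10 noncoding genes with the highest mean share, each list's called genes and otherwise its 3 most abundant, tested genes within 250 kb of Malat1 or Neat1, small RNA genes within the 4, and the 3 genes nearest in pattern to each. Sfpq, Nono, Hnrnpm, Pspc1, Rbm14, Snhg6, Snhg20, Gm15564, Col1a1, Mgp, Zbtb37 and marker genes were named after their values were seen. A few genes that the rule names are not reported here. Alternatives were RLE factors, library size alone, library sizes without the 4 RNAs, other filters, the quasi-likelihood test, DESeq2 1.42.0, other denominators and each library left out.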

Additional observations from a re-analysis of the deposited data

How the results depend on the processing

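The number of genes called fell from 189 to 112 with no filter beyond 1 count and to 50 with the quasi-likelihood test, and was 306 with DESeq2. With 1 library left out it ranged from 72 (without non-CD24+CD90+ replicate 3) to 323 (without TIC replicate 1). It was 87 without non-CD24+CD90+ replicate 1, 90 without replicate 2 of that group and 102 without TIC replicate 2. The number of called genes on the lists, 2, was 1 with no filter, 0 with the quasi-likelihood test (9 at an unadjusted p under 0.05 by exactTest), and 0 to 4 with a library left out. With protein coding genes as the total, the mean share in TICs was 0.108% for Neat1 and 4.62% for Gm42418. The causes were not tested.

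Over 13 alternative fits the log2 fold change ranged from 1.43 to 2.13 for Malat1, from 0.19 to 0.73 for Gm42418, from -0.24 to 0.02 for Neat1 and from -0.29 to 0.04 for Gas5. Neat1 and Gas5 were positive in 1 fit each, without TIC replicate 1 and without TIC replicate 3. No paired analysis was possible because the labels share no replicate number between the groups: they number the libraries 1 to 6 in 1 series. With pools of sorted cells and 3 libraries per group, the spread between pools, and not depth, limits the precision.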
